A study of Mus musculus with 11 samples.

Results

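Gene expression in the rectal mucosa was compared between 4 α6ΔIEC-TAM mutant mice and 3 wild-type control mice that had both been given tamoxifen, so that the drug was matched and the genotype differed. These 7 arrays, 1 per mouse, are 7 of the 11 in the series. They were chosen by the genotype and treatment in the labels, and all 19944 genes that could be read by a transcript cluster with a single gene symbol were described. The other 4 arrays are from mutant mice given NaCl by gavage in place of tamoxifen. Gavage started at the age of 8 weeks and was repeated every other day over 5 days, with tamoxifen at 10 mg per day or with NaCl, and tissue was taken on day 15 after its start, at 10 weeks of age. In the mutants, tamoxifen is meant to delete Itga6 in the intestinal epithelium. The labels do not give the promoter that drives the deletion. They do give sex. Mutant tamoxifen arrays 1, 2 and 4 are female and array 3 is male, control arrays 1 and 3 are male and array 2 is female, and mutant NaCl arrays 1, 2 and 3 are female and array 4 is male. Array numbers only name a mouse.

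Itga6 encodes integrin α6. With integrin β4 it forms a laminin receptor in hemidesmosomes, the junctions that anchor the basal face of an epithelial cell to the basement membrane and to its keratin filaments. In the colon and rectum, stem cells at the base of the crypts give rise to absorptive colonocytes, which take up salt, water and short-chain fatty acids, to mucus-making goblet cells and to hormone-secreting cells. Cells divide in the lower crypt and take on transport and metabolic functions as they move towards the surface.

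Values are log2 signals. A level belongs to its own probe set and is compared only between arrays. A log2 difference is mutant tamoxifen minus control tamoxifen from a limma model that allows for sex, so it can depart from the plain difference of the group means, and its fold is 2 to the power of its size. Rose and fell are used where the Benjamini-Hochberg adjusted p over all genes was under 0.05. The number of mice limits the precision.

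The targeted gene did not have the lower signal that the label leads one to look for. Itga6 (Entrez Gene 16403) measured 11.75, 11.93, 11.84 and 11.77 in the mutant tamoxifen arrays and 11.15, 11.52 and 11.49 in the control arrays, so that all 4 arrays labelled mutant tamoxifen were above all 3 control arrays. It rose 1.34-fold (log2 difference 0.42, SE 0.0957, adjusted p = 0.00949). The mutant NaCl arrays measured 11.39, 11.28, 11.49 and 11.47. The gene has a single transcript cluster, and nothing used here says which exons it reads or which the mutant allele loses, so this signal is no check of the labels. Directions below follow the labels, so that mutant tamoxifen arrays are the arrays so labelled. Itga6 did not pass without mutant tamoxifen array 3 (adjusted p = 0.0614).

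The 2 groups were widely different. Of 19944 genes, 2570 rose and 2345 fell, which is 24.6% of the genes called, 12.9% higher and 11.8% lower. At least 2-fold apart were 133 genes that rose and 95 that fell. For 17.3% of genes all 4 mutant values lay above all 3 control values, and for 20.1% all lay below. The median difference over all genes was -0.02 and the central differences, between the 5th and the 95th percentile, ran from -0.39 to 0.45. Mutant NaCl and control arrays had 0 genes past the threshold in limma and 1625 at an unadjusted p under 0.05. The mutant tamoxifen arrays differed from the mutant NaCl arrays in 4634 genes (23.2%). That comparison shares the 4 mutant tamoxifen arrays, so its values and tests are not independent of those against the controls.

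**Figure D1:**
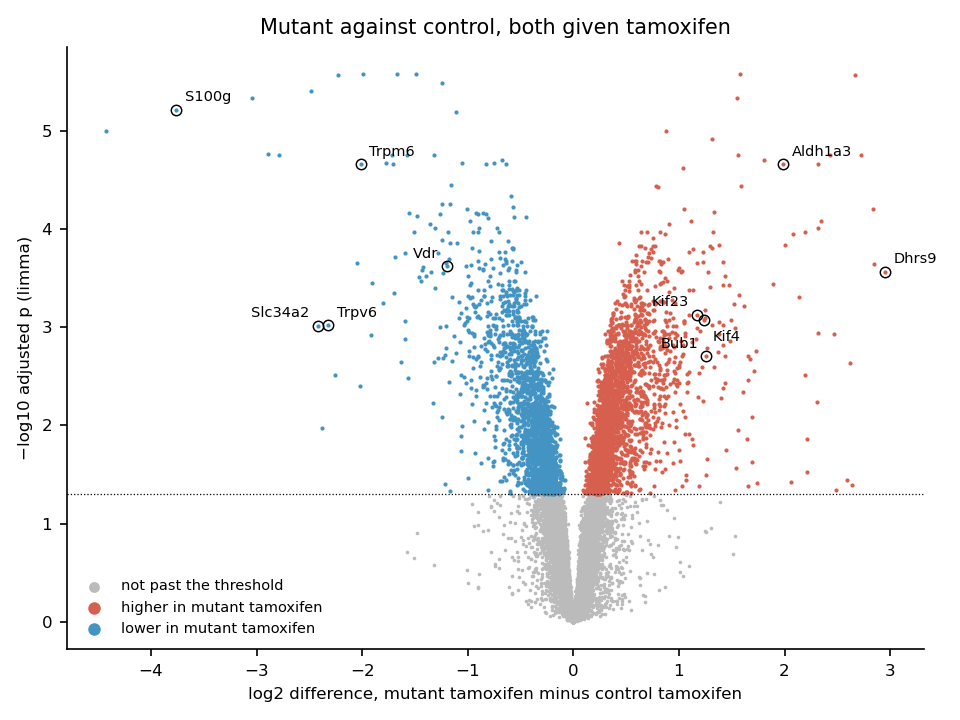
Each point is 1 of 19944 genes: the x axis is the log2 difference of mutant tamoxifen minus control tamoxifen and the y axis is −log10 of limma's adjusted p. Genes past the threshold of 0.05 are coloured (2570 higher, 2345 lower), and the genes with values in the text for calcium, phosphate and magnesium handling, retinoid synthesis and cell division are named (10 genes).

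The 3 control arrays lay far apart. On the first principal component, which held 47% of the variance, control array 1 lay at -29.1 and control arrays 2 and 3 at -8.91 and -17.2. The mutant tamoxifen arrays lay between 22 and 25.4 on this component. On the second, which held 19.3%, control array 2 lay at 14.1 and control arrays 1 and 3 at -19.7 and -10.4. Mutant tamoxifen arrays 1 and 2 lay at 6.48 and 5.66 on it, and arrays 3 and 4 at -19.1 and -8.87. The mutant tamoxifen arrays were thus also far apart on the second component. The sexes were unevenly spread over the groups. The difference between the sexes in the mutant effect was past the adjusted threshold for 0 genes in limma and at an unadjusted p under 0.05 for 848, with 1 female control and 1 male mutant behind it. The fit of all arrays called 4915 genes. Without mutant tamoxifen array 3, the male of that group, 2517 genes were called, and without control array 2, the female control, 3031 were called. Counts in the gene lists below under such alternatives stand beside these totals. Females alone gave 1385 called genes.

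The mean level of colonic epithelium markers was similar in all arrays. Epcam, an epithelial adhesion molecule, measured 12.23 on average in the mutant tamoxifen group and 12.24 in the controls, and the mean level of 10 such markers ran from 12.02 to 12.18 in the mutant tamoxifen arrays, 12.05 to 12.19 in the control arrays and 12.09 to 12.12 in the mutant NaCl arrays. Of these 10 markers 2 rose and 2 fell (40% called, against 24.6% of all genes), with differences from -1.67 to 0.70. Markers of other cells also moved with the groups or with single arrays. All 13 smooth muscle genes fell (median difference -0.49). Their mean level ran from 11.51 to 11.65 in the mutant tamoxifen arrays, 12.08 to 12.20 in the control arrays and 11.94 to 12.22 in the mutant NaCl arrays. Of 12 genes of enteric neurons and glia 7 fell (median -0.29). Genes of squamous epithelium, which lines the anal canal next to the rectum, passed in 0 of 15 cases in limma, 2 at an unadjusted p under 0.05 (median 0.46) but varied widely between mice, with a mean level of 6.71 in control array 1, 10.10 in control array 2 and 7.79 in control array 3, against 8.26 to 10.02 in the mutant tamoxifen arrays. The part of these cells in the results below was not tested. In whole mucosa, fewer cells of a type and less RNA per cell cannot be told apart. For neuron and glia genes, the counts were 0 higher and 1 lower with the female arrays alone, 0 and 4 after another quantile normalization, 0 and 2 without mutant tamoxifen array 3, 0 and 3 without control array 2, and 0 and 4 of 6 tested without the lowest 50% of genes. For squamous genes, the counts were 1 higher and 0 lower with only the 7 arrays of the groups compared, and 5 and 0 without control array 2.

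**Figure D2:**
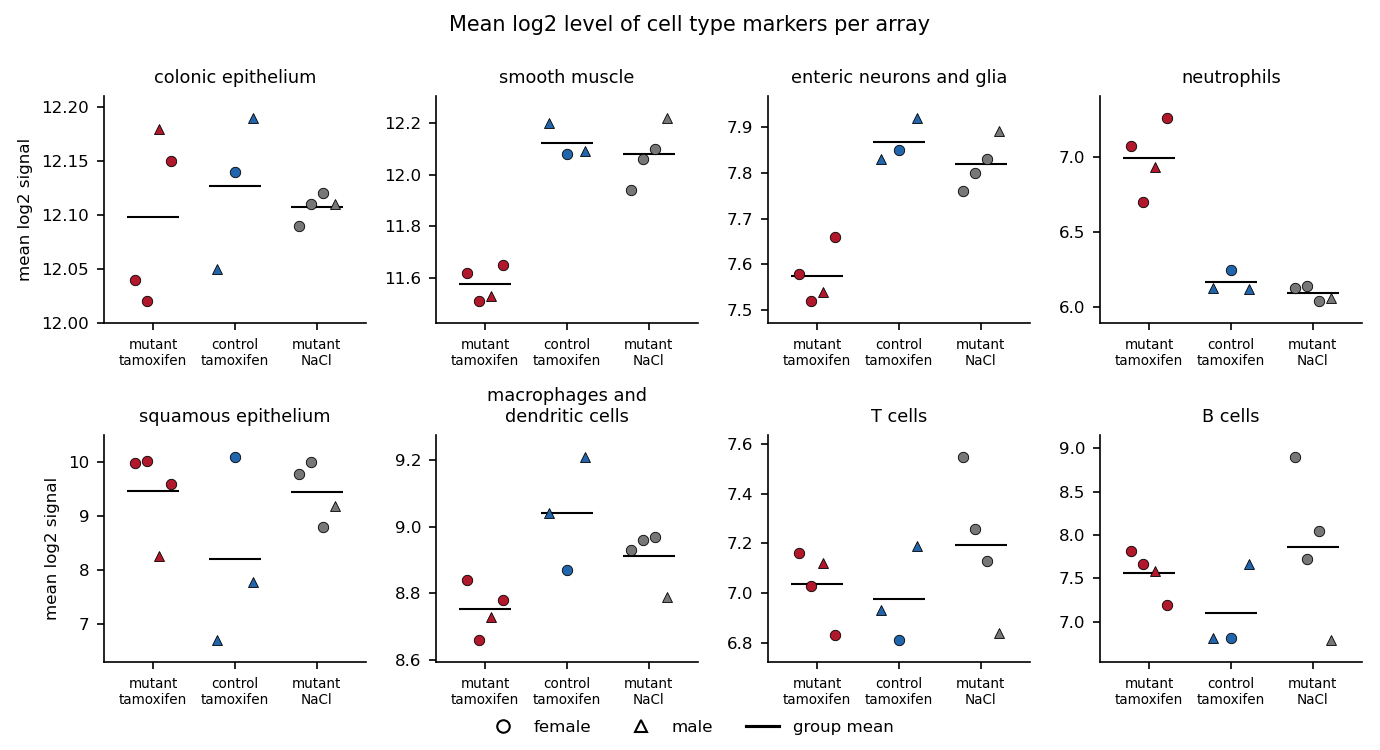
Mean log2 level of the measured markers of 8 cell types in each of the 11 arrays, with sex shown by the marker shape; each panel has its own y axis. Smooth muscle genes were lower and neutrophil genes higher in all 4 mutant tamoxifen arrays than in all 3 control arrays, and squamous genes were lowest in control array 1 at 6.71.

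The group of genes with the deepest fall handled calcium, phosphate and magnesium. The colonocyte takes up calcium through the channel Trpv6, carries it through the cell bound to calbindin D9k, the product of S100g, and pumps it out at its base, and the vitamin D receptor Vdr governs this route. Of 11 measured genes 8 fell and 0 rose (median -1.19). The median of mutant NaCl minus control was -0.23 and that of mutant tamoxifen minus mutant NaCl -0.47, and 5 of 11 passed in the latter. S100g measured 8.06, 8.41, 7.33 and 7.29 in the mutant tamoxifen arrays and 11.15, 11.54 and 11.32 in the control arrays. The groups did not overlap, and no other gene but Cyp2c55 fell further among the ranked genes: S100g fell 13.5-fold (log2 difference -3.76, SE 0.214, adjusted p = 6.08e-06). The mutant NaCl arrays lay between, at 9.74, 9.67, 9.77 and 9.24.

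Trpv6 measured 7.91, 8.13, 6.89 and 6.90 in the mutant tamoxifen arrays and 9.48, 10.33 and 8.61 in the control arrays. It fell 4.99-fold (log2 difference -2.32, SE 0.324, adjusted p = 0.000958), and control array 2, the female, was the highest. For Trpv6 mutant NaCl minus control was -1.04, and mutant tamoxifen minus mutant NaCl was -1.28. Trpm6, a magnesium channel of the gut surface, measured 8.80, 9.12, 8.34 and 8.79 in the mutant tamoxifen arrays and 10.31, 10.85 and 10.78 in the control arrays and fell 4.04-fold (log2 difference -2.01, SE 0.145, adjusted p = 2.17e-05). Vdr fell 2.3-fold (log2 difference -1.20, SE 0.128, adjusted p = 0.000237), from 12.66 ± 0.0816 (SD, n = 3) to 11.43 ± 0.275 (SD, n = 4).

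Among phosphate carriers, Slc34a2, a sodium-phosphate cotransporter of the luminal membrane, measured 8.99, 8.78, 7.20 and 8.11 in the mutant tamoxifen arrays and 10.81, 10.37 and 10.43 in the control arrays, with the male mutant array 3 the lowest. It fell 5.36-fold (log2 difference -2.42, SE 0.34, adjusted p = 0.000965). The mutant NaCl arrays, at 8.56, 8.88, 8.71 and 8.83, overlapped the mutant tamoxifen arrays, from which they did not differ past the threshold (log2 difference -0.47, adjusted p = 0.296). Slc20a1, a phosphate carrier of another family, fell by 1.19. The plasma membrane calcium pump Atp2b1, which moves calcium out of the cell, fell by 0.31. Trpm7, another magnesium channel, had a difference of 0.07 that did not pass. Atp2b1 did not pass without mutant tamoxifen array 3 or control array 1 or 2 (adjusted p 0.064 to 0.133).

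**Figure D3:**
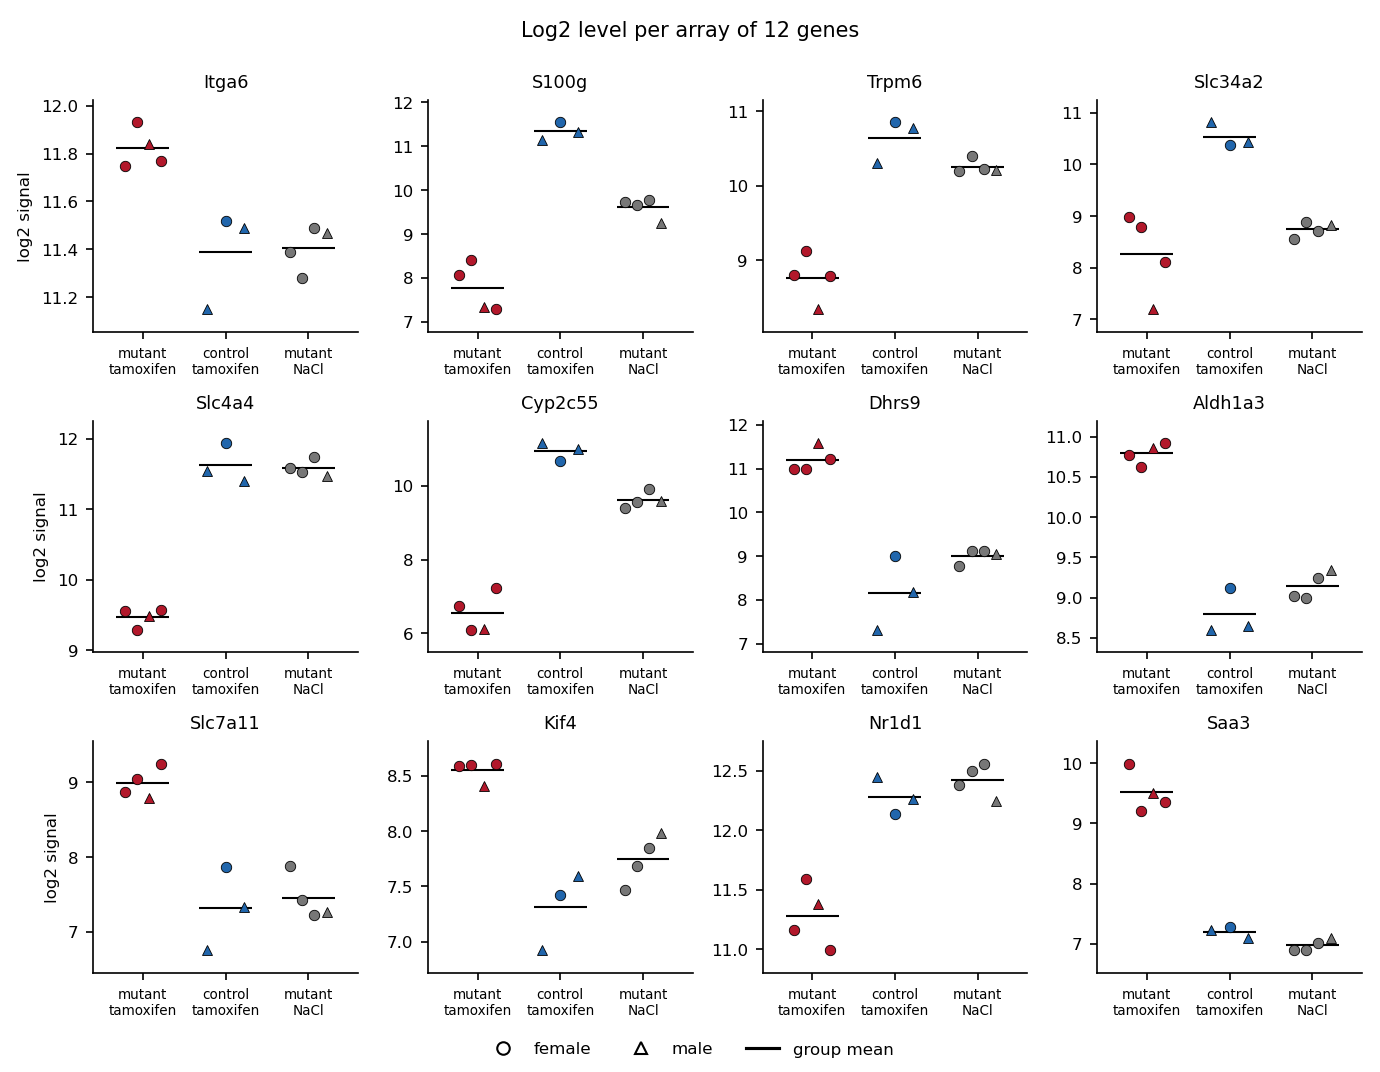
Log2 level of 12 genes in each of the 11 arrays, by group, with sex shown by the marker shape and a bar at each group mean; each panel has its own y axis. The 12 genes were chosen so that all 4 mutant tamoxifen arrays lie on one side of all 3 control arrays. Over all genes, 17.3% lay above in this way and 20.1% below. For S100g and Slc34a2 the mutant NaCl arrays lie below the controls.

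Genes for chloride and bicarbonate transport fell in 10 of 16 cases and rose in 3 (median -0.34). The sodium-bicarbonate cotransporter Slc4a4, which loads bicarbonate into the cell from its basal side, measured 9.55, 9.29, 9.48 and 9.57 in the mutant tamoxifen arrays and 11.55, 11.94 and 11.40 in the control arrays. It fell 4.7-fold (log2 difference -2.23, SE 0.111, adjusted p = 2.72e-06), with little spread among the mutants. The sulfate carrier Slc26a2 fell 2.5-fold and the carbonic anhydrases Car4 and Car2 fell 2.36-fold and 2.16-fold. Best2, a bicarbonate channel of goblet cells, fell by 0.89. The genes that rose belong to chloride secretion: Slc12a2, the basal chloride loader, rose by 0.30, Kcnn4, a potassium channel that drives secretion, by 0.35, and Car12 by 0.51. The secretory chloride channel Cftr had a difference of 0.23 that did not pass (adjusted p = 0.122). Slc12a2 did not pass without mutant tamoxifen array 2, 3 or 4 or control array 2 or 3 (adjusted p 0.0512 to 0.16). Kcnn4 did not pass without mutant tamoxifen array 3 or control array 2 (adjusted p = 0.0669 and 0.0603). Car12 did not pass without mutant tamoxifen array 3 (adjusted p = 0.119).

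Of 16 genes for sodium uptake and its control by aldosterone, the adrenal hormone that raises sodium uptake in the distal colon, 9 fell and 1 rose (median -0.34). Scnn1g, the γ subunit of the epithelial sodium channel, measured 10.12, 10.07, 9.80 and 10.38 in the mutant tamoxifen arrays and 10.46, 11.58 and 10.83 in the control arrays. Control array 1 was only just above the mutant arrays, and the fall was 2.11-fold (log2 difference -1.08, SE 0.144, adjusted p = 0.000799). The mutant NaCl arrays, at 11.75, 11.72, 11.76 and 11.51, overlapped the controls. Scnn1a, the α subunit, fell by 0.38, and Scnn1b, the β subunit, had a difference of -0.49 that did not pass (adjusted p = 0.116). The aldosterone receptor Nr3c2 fell by 0.63, and Sgk1, the kinase that aldosterone induces, by 0.69. Hsd11b2, the enzyme that keeps cortisol-type steroids off that receptor, fell by 0.71. Fxyd4, a modulator of the sodium pump, fell 2.55-fold. Atp1b3, a β subunit of the pump, was the member that rose (0.22). For sodium and aldosterone genes, the counts were 0 higher and 6 lower with the female arrays alone, 1 and 5 without mutant tamoxifen array 3, and 0 and 5 without control array 2. Scnn1a did not pass without mutant tamoxifen array 3 or control array 2 or 3 (adjusted p 0.0535 to 0.243). Sgk1 did not pass without mutant tamoxifen array 2 or 3, control array 1, 2 or 3, or mutant NaCl array 3 (adjusted p 0.0502 to 0.24). Atp1b3 did not pass without control array 1 or 2 (adjusted p = 0.0506 and 0.189).

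The water channels did not move together. Of 8 measured, 3 fell and 1 rose (50% called against 24.6% of all genes, median -0.10). Aqp8, a channel of the surface colonocyte, measured 11.39, 11.21, 11.46 and 10.94 in the mutant tamoxifen arrays and 12.48, 12.61 and 12.61 in the control arrays and fell 2.48-fold (log2 difference -1.31, SE 0.153, adjusted p = 0.000396). Aqp4, a channel of the basal membrane, measured 10.73, 10.74, 10.88 and 10.48 in the mutant tamoxifen arrays and 9.13, 8.88 and 10.01 in the control arrays and rose 2.64-fold (log2 difference 1.40, SE 0.279, adjusted p = 0.00529), with control array 3 nearest to the mutants. Aqp11 fell by 0.76 and Aqp1, which is also a channel of small vessels, by 0.61. Aqp4 did not pass without control array 2 (adjusted p = 0.0649).

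Most drug-metabolising cytochromes P450 fell. Among 26 measured, 15 fell and 1 rose (median -0.63). Cyp2c55, an oxidase of fatty acids and drugs found in the large bowel, measured 6.75, 6.10, 6.12 and 7.22 in the mutant tamoxifen arrays and 11.16, 10.67 and 11 in the control arrays. Its fall of 21.6-fold was the deepest of the 26 (log2 difference -4.43, SE 0.271, adjusted p = 1.01e-05), and the mutant NaCl arrays lay between at 9.39, 9.55, 9.91 and 9.59. Cyp2d12 measured 7.56, 7.28, 6.98 and 6.78 in the mutant tamoxifen arrays and 10.00, 10.27 and 10.16 in the control arrays and fell 8.22-fold (log2 difference -3.04, SE 0.167, adjusted p = 4.57e-06). Cyp2d22, Cyp2d26, Cyp2d10, Cyp2d34 and Cyp2d9 of the same near-identical family fell by 1.49, 1.00, 0.94, 0.81 and 0.66, and their probes may read each other's transcripts. Cyp27a1, a sterol hydroxylase of mitochondria, fell by 0.95. Cyp2j6, an epoxygenase of arachidonic acid, was the one that rose (0.56). Nr1i2, the nuclear receptor PXR that switches on such enzymes when foreign compounds bind it, fell by 0.33.

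Enzymes that conjugate or hydrolyse foreign compounds fell in 13 of 29 cases and rose in 1 (median -0.17). Sult1a1, a phenol sulfotransferase, measured 8.61, 8.33, 8.56 and 8.92 in the mutant tamoxifen arrays and 10.13, 9.94 and 10.26 in the control arrays and fell 2.78-fold (log2 difference -1.48, SE 0.126, adjusted p = 7.39e-05). The carboxylesterases Ces2a, Ces2b and Ces2e fell by 1.43, 1.17 and 0.75. The glutathione transferases did not all go one way: Gstt1 fell by 1.00 and Gstm3 by 0.36, while Gsta3 rose by 0.54. Abcc2, a pump that exports conjugates, fell 2.64-fold. Selenbp1 and Selenbp2, selenium-binding proteins of mature colonocytes, fell 3.97-fold and 3.29-fold, and as near-identical copies may share signal. Dio1, a selenium enzyme that activates thyroid hormone, measured 8.29, 8.04, 7.84 and 7.20 in the mutant tamoxifen arrays and 9.90, 9.92 and 9.74 in the control arrays and fell 4.15-fold (log2 difference -2.05, SE 0.215, adjusted p = 0.000224). For these enzymes, the counts were 0 higher and 8 lower with only the 7 arrays of the groups compared, and 0 and 7 with the female arrays alone. Gstm3 did not pass without mutant tamoxifen array 2 or control array 2 or 3 (adjusted p 0.052 to 0.153). Gsta3 did not pass without mutant tamoxifen array 3 (adjusted p = 0.0958).

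Within vitamin A metabolism genes moved both ways. Retinol is bound in the cell by Rbp2, oxidised to retinal by dehydrogenases such as Dhrs9 and Rdh10, and made into retinoic acid, the form that acts on nuclear receptors, by the Aldh1a enzymes. Of 18 genes 3 rose and 7 fell (median -0.08). Dhrs9 measured 11, 11, 11.58 and 11.21 in the mutant tamoxifen arrays and 7.32, 9 and 8.19 in the control arrays. It rose 7.71-fold, the largest rise among the 40 ranked genes (log2 difference 2.95, SE 0.321, adjusted p = 0.000272), and the mutant NaCl arrays measured 8.78, 9.11, 9.11 and 9.05. For vitamin A genes, the counts were 3 higher and 2 lower with the female arrays alone.

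Aldh1a3 measured 10.77, 10.62, 10.86 and 10.92 in the mutant tamoxifen arrays and 8.60, 9.12 and 8.65 in the control arrays and rose 3.97-fold (log2 difference 1.99, SE 0.143, adjusted p = 2.17e-05). Rdh10 rose by 0.82. Aldh1a1, another enzyme of the same step, fell by 0.72. Rbp2 fell 2.31-fold (log2 difference -1.21, SE 0.17, adjusted p = 0.000971), Retsat, a saturase of retinol, 2.06-fold, and the receptor Rarb by 0.43. Cyp26b1, a hydroxylase that breaks retinoic acid down, did not pass, at -0.09.

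Some genes of fatty acid and butyrate use fell. Butyrate made by gut bacteria is the main fuel of the colonocyte. Of 21 genes 11 fell and 0 rose (median -0.16). Slc5a8, the sodium-coupled butyrate carrier, measured 11.69, 11.54, 11.72 and 11.28 in the mutant tamoxifen arrays and 12.67, 12.48 and 12.49 in the control arrays and fell 1.97-fold (log2 difference -0.98, SE 0.112, adjusted p = 0.000373), and the proton-coupled carrier Slc16a1 fell by 0.50. The carnitine shuttle genes Slc25a20 and Cpt1a fell by 0.55 and 0.24. Ppargc1a, the coactivator that drives mitochondrial genes, measured 10.02, 9.93, 9.67 and 9.57 in the mutant tamoxifen arrays and 10.90, 10.73 and 11.05 in the control arrays and fell 2.12-fold (log2 difference -1.08, SE 0.135, adjusted p = 0.000548). Its partner in fatty acid oxidation, the nuclear receptor Ppara, fell by 0.69, while Pparg, a related receptor of colonocytes, rose by 0.59. For fatty acid genes, the counts were 0 higher and 5 lower with only the 7 arrays of the groups compared, 0 and 4 with the female arrays alone, 0 and 6 without mutant tamoxifen array 3 or control array 2, and 0 and 7 without control array 3. Slc25a20 did not pass without control array 2 or 3 (adjusted p = 0.155 and 0.0506). Cpt1a did not pass without mutant tamoxifen array 3 (adjusted p = 0.129).

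Several genes of cholesterol synthesis rose, but the control arrays were far apart and no call held without mutant tamoxifen array 3. Of 20 genes 12 rose and 0 fell (median 0.59). Cyp51, the lanosterol demethylase, measured 10.49, 10.43, 10.62 and 10.42 in the mutant tamoxifen arrays and 8.38, 9.94 and 9.47 in the control arrays, so that control array 1 was lowest and control array 2 nearest to the mutants. It rose 2.18-fold (log2 difference 1.12, SE 0.275, adjusted p = 0.0139). Idi1, an isomerase of the isoprene step, measured 11.27, 11.35, 11.35 and 11.28 in the mutant tamoxifen arrays and 9.41, 10.92 and 10.46 in the control arrays and rose 1.92-fold (log2 difference 0.94, SE 0.26, adjusted p = 0.0242). Lss, which closes the sterol rings, rose by 1.00, and Insig1, the sterol sensor, by 0.56. Hmgcs1, which starts the pathway, had a difference of 0.60 that did not pass (adjusted p = 0.0666). The mutant NaCl group had a median of 0.28 above the controls, and 1 of the 20 genes passed between the mutant groups. For cholesterol synthesis, the counts were 1 higher and 0 lower with only the 7 arrays of the groups compared, 2 and 0 with the female arrays alone, and 0 and 0 without mutant tamoxifen array 3. Cyp51, Idi1, Lss and Insig1 did not pass without mutant tamoxifen array 3 (adjusted p 0.106 to 0.147).

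Genes that the transcription factor ATF4 induces when amino acids are short rose in 12 of 27 cases and fell in 3 (median 0.25). Slc7a11, which imports cystine for glutathione, measured 8.87, 9.04, 8.79 and 9.25 in the mutant tamoxifen arrays and 6.75, 7.87 and 7.33 in the control arrays. Every mutant array was above every control array, and the rise was 2.81-fold (log2 difference 1.49, SE 0.203, adjusted p = 0.00085). Asns, the asparagine synthetase, measured 10.73, 10.80, 11.23 and 11.06 in the mutant tamoxifen arrays and 9.61, 9.81 and 10.19 in the control arrays and rose 2.06-fold (log2 difference 1.04, SE 0.221, adjusted p = 0.0072). Among the enzymes of serine and one-carbon metabolism, Psat1 rose by 1.06, Mthfd2 by 0.92, Shmt2 by 0.59 and Phgdh by 0.49. The leucine carrier Slc7a5 rose by 0.86 and Atf4 itself by 0.25. Ddit3 and Trib3, of the stress-death arm of the same response, did not pass, at -0.13 and 0.07. Atf3, Nupr1 and Chac1, also on the list, differed by 0.89, 0.45 and 0.13. Gpt2, an alanine transaminase, Slc1a5, a glutamine carrier, and Cth, which makes cysteine, fell by 0.77, 0.40 and 0.39. For ATF4 targets, the counts were 6 higher and 1 lower with the female arrays alone. Asns and Atf4 did not pass without mutant tamoxifen array 3 or control array 2 (adjusted p 0.0621 to 0.0943). Gpt2 did not pass without mutant tamoxifen array 3 (adjusted p = 0.0581). Cth did not pass without mutant tamoxifen array 1, 2 or 4, control array 1, 2 or 3, or mutant NaCl array 1 or 3 (adjusted p 0.0527 to 0.151).

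The promoters of the Slc7a11 and Asns genes are shown because both genes moved and both windows hold letters of the ATF4 response element. Each window runs from 250 bases before to 50 bases after the RefSeq start site (GRCm38.p6), 5′ to 3′ on the gene's strand, with matches to TGATGNAA on either strand in capitals.
Slc7a11 (chr3:50443564-50443863, minus strand): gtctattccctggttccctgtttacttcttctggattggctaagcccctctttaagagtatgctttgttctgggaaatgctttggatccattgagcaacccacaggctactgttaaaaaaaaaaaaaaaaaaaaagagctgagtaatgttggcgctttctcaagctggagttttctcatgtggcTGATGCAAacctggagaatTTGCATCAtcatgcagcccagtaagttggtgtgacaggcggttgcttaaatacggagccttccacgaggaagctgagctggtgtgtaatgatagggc
Asns (chr6:7693160-7693459, minus strand): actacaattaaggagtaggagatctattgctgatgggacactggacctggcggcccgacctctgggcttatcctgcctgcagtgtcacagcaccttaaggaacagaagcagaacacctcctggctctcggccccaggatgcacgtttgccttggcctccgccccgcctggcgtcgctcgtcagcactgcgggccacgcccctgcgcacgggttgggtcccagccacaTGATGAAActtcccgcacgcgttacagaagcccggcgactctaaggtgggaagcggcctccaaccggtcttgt
The Slc7a11 window holds the letters in both orientations, starting at positions -66 and -47 from the start site, and the Asns window once, at -23. Of 26 windows found for 22 of the 27 genes, 30.8% held a match, against 3.97% of all 32851 windows in the table.

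Many genes of protein synthesis rose. Of 18 cytoplasmic tRNA synthetases, the enzymes that charge tRNAs with amino acids, 14 rose and 0 fell (median 0.34), led by Wars and Tars at 0.64 and 0.64. Of 24 genes of ribosome assembly 19 rose and 0 fell (median 0.41). Gnl3, the nucleolar protein nucleostemin, measured 8.96, 9.13, 9.39 and 9.32 in the mutant tamoxifen arrays and 8.33, 8.63 and 8.57 in the control arrays and rose 1.62-fold (log2 difference 0.69, SE 0.129, adjusted p = 0.00382). The small nucleolar RNP proteins Nop58, Nop56 and Fbl rose by 0.58, 0.51 and 0.39. The RNA polymerase I subunit Polr1a rose by 0.32. For tRNA synthetases, the counts were 5 higher and 0 lower with the female arrays alone, and 6 and 0 without mutant tamoxifen array 3. For ribosome assembly, the counts were 3 higher and 0 lower with the female arrays alone, and 10 and 0 without mutant tamoxifen array 3. Nop58 and Nop56 did not pass without mutant tamoxifen array 3 (adjusted p = 0.0506 and 0.0658). Polr1a did not pass without mutant tamoxifen array 3 or control array 2 (adjusted p = 0.11 and 0.0532).

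Nearly all genes of cell division rose. Of 33 DNA replication genes 30 rose and 0 fell (median 0.59), and all 32 mitosis genes rose (median 0.83). Kif4, a motor that compacts chromosomes and builds the central spindle, measured 8.59, 8.60, 8.41 and 8.61 in the mutant tamoxifen arrays and 6.92, 7.42 and 7.59 in the control arrays and rose 2.37-fold (log2 difference 1.24, SE 0.169, adjusted p = 0.000843). Bub1, a kinase of the spindle checkpoint, measured 9.18, 9.35, 9.24 and 9.22 in the mutant tamoxifen arrays and 7.43, 8.21 and 8.34 in the control arrays and rose 2.4-fold (log2 difference 1.26, SE 0.206, adjusted p = 0.00197). Kif23, a motor needed to part the daughter cells, measured 9.88, 9.96, 9.68 and 9.83 in the mutant tamoxifen arrays and 8.29, 8.74 and 8.97 in the control arrays and rose 2.26-fold (log2 difference 1.17, SE 0.155, adjusted p = 0.000744). For Kif23 the mutant NaCl arrays, at 9.02, 9.13, 9.08 and 9.37, lay above the controls and below the mutant tamoxifen arrays.

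Among replication genes the subunit Rrm2 of ribonucleotide reductase, which makes the building blocks of DNA, led with 1.29. Mcm3, a subunit of the helicase that opens DNA, measured 8.61, 8.60, 8.97 and 8.72 in the mutant tamoxifen arrays and 7.36, 7.96 and 8.19 in the control arrays and rose 1.87-fold (log2 difference 0.91, SE 0.207, adjusted p = 0.00998). Its partners Mcm4, Mcm5 and Mcm6 rose by 0.86, 0.85 and 0.77. Rfc1, a subunit of the loader of the replication clamp, and Pold1, a DNA polymerase, did not pass, at 0.13 and 0.15. Across the mitosis genes the median of mutant NaCl minus control was 0.41 and that of mutant tamoxifen minus mutant NaCl 0.49, and 22 of 32 passed in the latter. Mcm3 did not pass without mutant tamoxifen array 3 (adjusted p = 0.0811).

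Promoters of 4 of these genes are shown because the members moved together and their windows hold letters linked in textbooks to cell cycle control: the CHR element TTTGAA of mitotic genes and the E2F forms TTTCCCGC and TTTGGCGC of replication genes, searched on both strands and in capitals below.
Kif4 (chrX:100625815-100626114, plus strand): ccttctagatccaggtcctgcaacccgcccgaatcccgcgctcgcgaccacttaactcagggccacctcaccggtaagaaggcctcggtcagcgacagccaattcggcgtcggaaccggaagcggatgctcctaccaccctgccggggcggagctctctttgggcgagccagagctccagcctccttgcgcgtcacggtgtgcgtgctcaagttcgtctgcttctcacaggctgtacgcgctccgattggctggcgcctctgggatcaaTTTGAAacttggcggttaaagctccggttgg
Kif23 (chr9:61946750-61947049, minus strand): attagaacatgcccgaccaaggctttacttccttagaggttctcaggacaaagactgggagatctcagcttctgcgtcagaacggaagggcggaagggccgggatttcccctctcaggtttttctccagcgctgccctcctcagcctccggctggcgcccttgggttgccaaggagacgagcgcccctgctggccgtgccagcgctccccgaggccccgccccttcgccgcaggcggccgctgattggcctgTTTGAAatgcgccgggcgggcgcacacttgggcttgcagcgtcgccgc
Plk1 (chr7:122159185-122159484, plus strand): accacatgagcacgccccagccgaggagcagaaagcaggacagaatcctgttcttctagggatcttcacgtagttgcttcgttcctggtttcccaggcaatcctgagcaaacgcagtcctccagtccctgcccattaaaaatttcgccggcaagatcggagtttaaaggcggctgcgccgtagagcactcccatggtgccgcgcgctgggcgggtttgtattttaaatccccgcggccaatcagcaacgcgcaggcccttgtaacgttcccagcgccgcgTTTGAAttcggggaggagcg
Mcm3 (chr1:20820263-20820562, minus strand): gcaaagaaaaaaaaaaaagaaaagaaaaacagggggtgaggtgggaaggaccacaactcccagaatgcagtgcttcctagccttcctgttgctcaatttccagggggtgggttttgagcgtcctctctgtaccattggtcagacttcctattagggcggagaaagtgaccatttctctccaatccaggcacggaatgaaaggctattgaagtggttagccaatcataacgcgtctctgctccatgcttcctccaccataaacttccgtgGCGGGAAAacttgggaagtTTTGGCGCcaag
In Kif4, Kif23 and Plk1, whose product is a kinase of mitotic entry that rose by 0.96, the CHR letters started at positions 19, 2 and 30 after the start site, and the Mcm3 window held both E2F forms, at 19 and 38. The CHR letters were in 79.3% of 29 windows of 27 mitosis genes and in 17.9% of all 32851 windows. The forms TTTCCCGC and TTTGGCGC were each in 15.2% of 33 windows of replication genes, against 1.07% and 0.514% of all windows.

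**Figure D4:**
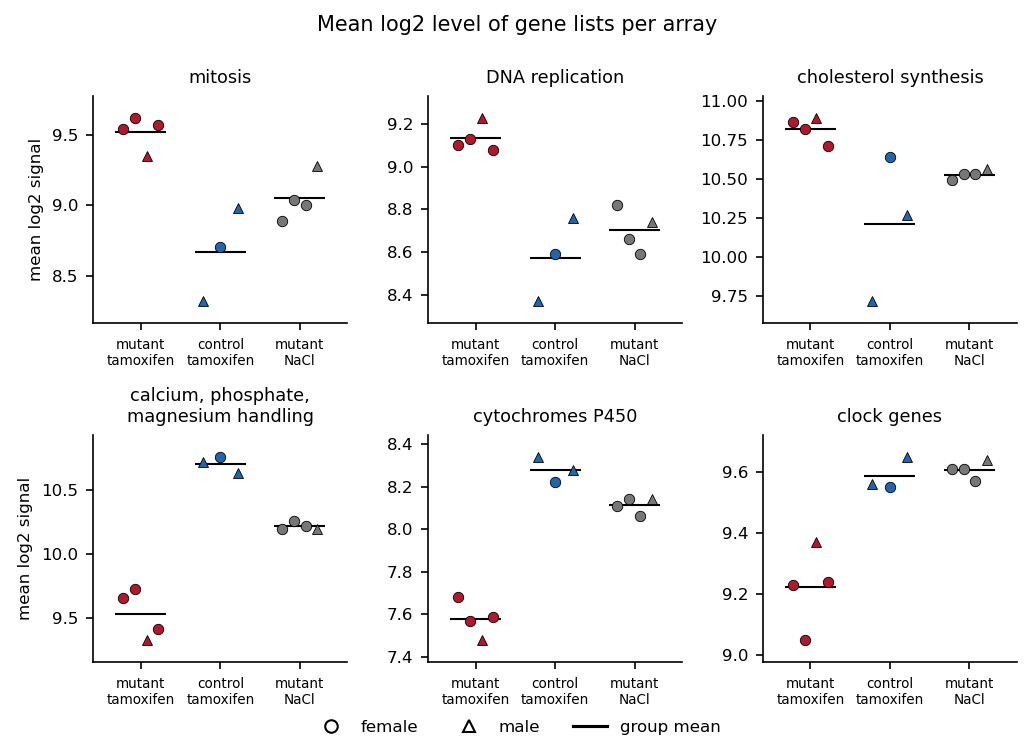
Mean log2 level of the measured members of 6 gene lists in each of the 11 arrays, by group, with sex shown by the marker shape and a bar at each group mean; each panel has its own y axis. Control array 1 is the lowest control for mitosis and cholesterol synthesis, and the mean of the mutant NaCl arrays lies between the other group means for both.

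Some regulators of the switch into division rose and fewer fell. Of 22 regulators of the first gap phase 8 rose and 2 fell (45.5% called against 24.6% of all genes, median 0.05). Over all genes 12.9% rose and 11.8% fell. E2f2, a transcription factor of replication genes, measured 8.96, 8.83, 9.08 and 9.08 in the mutant tamoxifen arrays and 7.72, 8.00 and 7.95 in the control arrays and rose 2.16-fold (log2 difference 1.11, SE 0.0966, adjusted p = 8.19e-05). The cyclins Ccne1 and Ccne2 and their kinase Cdk2 rose by 0.70, 0.76 and 0.58. The inhibitors Cdkn2b and Cdkn1b fell by 0.61 and 0.19. The growth-signal cyclins Ccnd1 and Ccnd2 did not pass, at 0.05 and -0.06, and neither did Myc at 0.20. For first gap phase regulators, the counts were 5 higher and 1 lower with only the 7 arrays of the groups compared or without mutant tamoxifen array 3, 3 and 1 with the female arrays alone, 5 and 3 after another quantile normalization, 5 and 2 without mutant tamoxifen array 1 or 2, control array 1, or mutant NaCl array 4, and 4 and 4 without control array 2. Cdkn1b did not pass without mutant tamoxifen array 3 (adjusted p = 0.101).

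Stem cell and Wnt target genes did not share a direction: of 17, 2 rose and 5 fell (41.2% called against 24.6% of all genes, median -0.05). Over all genes 12.9% rose and 11.8% fell. Ascl2, a transcription factor of crypt stem cells, measured 7.49, 7.30, 7.31 and 7.42 in the mutant tamoxifen arrays and 8.19, 7.72 and 8.03 in the control arrays and fell by 0.59. Lgr5, the receptor that marks those cells, had a difference of 0.47 that did not pass (adjusted p = 0.0861), and Axin2, a general Wnt target, 0.07. The Wnt brakes Rnf43 and Nkd1 fell by 0.41 and 0.35. Cd44, an adhesion receptor of crypt cells, rose by 0.56 and the stem cell marker Smoc2 by 0.53. For stem cell and Wnt genes, the counts were 1 higher and 0 lower with the female arrays alone, 2 and 1 without mutant tamoxifen array 3, 1 and 2 without control array 2, and 2 and 3 of 12 tested without the lowest 50% of genes. Rnf43 and Smoc2 did not pass without control array 2 (adjusted p = 0.0807 and 0.0612). Ascl2 did not pass without mutant tamoxifen array 3 (adjusted p = 0.0708). Nkd1 did not pass without mutant tamoxifen array 3 or control array 2 (adjusted p = 0.133 and 0.0792).

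Of 22 genes of Notch, BMP and hedgehog signalling 4 rose and 4 fell (36.4% called against 24.6% of all genes, median -0.14). Hedgehog and BMP signals restrain growth towards the crypt top. The ligands Ihh and Bmp2 fell by 0.60 and 0.55. Grem1, a BMP antagonist made by cells under the crypt, measured 11.56, 11.40, 11.58 and 11.72 in the mutant tamoxifen arrays and 10.78, 10.68 and 10.95 in the control arrays and rose 1.75-fold (log2 difference 0.81, SE 0.0877, adjusted p = 0.000264). Bmp7 rose by 0.59 and the Notch ligand Jag1 by 0.29. Hes1, the direct Notch target, had a difference of -0.33 that did not pass (adjusted p = 0.0557). For Notch, BMP and hedgehog genes, the counts were 1 higher and 1 lower with the female arrays alone, and 3 and 2 without mutant tamoxifen array 3. Jag1 did not pass without mutant tamoxifen array 1 or 2 or control array 2 or 3 (adjusted p 0.0537 to 0.153).

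Several ligands of the EGF receptor family rose, while 2 of its receptors fell. Of 11 genes 6 rose and 3 fell (median 0.37). Nrg1, neuregulin, measured 9.36, 9.22, 9.61 and 9.72 in the mutant tamoxifen arrays and 7.89, 8.16 and 8.08 in the control arrays and rose 2.71-fold (log2 difference 1.44, SE 0.16, adjusted p = 0.000303). Hbegf measured 10.57, 8.95, 10.48 and 9.92 in the mutant tamoxifen arrays and 8.56, 8.32 and 8.66 in the control arrays, with mutant array 2 close to the controls and the others far above, and rose 3.06-fold (log2 difference 1.61, SE 0.312, adjusted p = 0.00453). The ligands Tgfa and Epgn rose by 0.27 and 0.42. The receptor Egfr rose by 0.64, and the receptors Erbb2 and Erbb3, of which Erbb3 binds neuregulin, fell by 0.43 and 0.39. Egf itself fell by 0.37. For EGF family genes, the counts were 4 higher and 1 lower with only the 7 arrays of the groups compared, 2 and 0 with the female arrays alone, and 3 and 1 without mutant tamoxifen array 3. Tgfa and Erbb3 did not pass without mutant tamoxifen array 3 (adjusted p = 0.101 and 0.105). Epgn did not pass without mutant tamoxifen array 3 or control array 1 or 3 (adjusted p 0.0707 to 0.104). Erbb2 did not pass without mutant tamoxifen array 3 or control array 2 (adjusted p = 0.104 and 0.0602). Egf did not pass without control array 2 (adjusted p = 0.0551).

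Transcription factors of the mature epithelium fell in 8 of 17 cases and rose in 1 (median -0.10). Besides Ppargc1a and Ppara, Hnf4g fell by 0.59 and Hnf4a by 0.25, both factors that hold the enterocyte programme. Cdx1 did not pass, at 0.07. Cdx2, the factor of intestinal identity, had a difference of 0.62 with an adjusted p of 0.0978. For epithelial transcription factors, the counts were 1 higher and 4 lower with the female arrays alone.

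Most clock genes fell. In the molecular clock, Clock and Arntl bind E-boxes and switch on Per, Cry and Nr1d genes, which feed back on them, and the factors Dbp, Tef and Hlf carry the rhythm to other genes. Of 16 genes 9 fell and 1 rose (median -0.34). Nr1d1 measured 11.16, 11.59, 11.38 and 10.99 in the mutant tamoxifen arrays and 12.45, 12.14 and 12.26 in the control arrays and fell 1.98-fold (log2 difference -0.99, SE 0.142, adjusted p = 0.00112). Dbp measured 9.71, 9.50, 10.19 and 9.31 in the mutant tamoxifen arrays and 10.77, 10.48 and 10.61 in the control arrays and fell 1.78-fold (log2 difference -0.83, SE 0.155, adjusted p = 0.0037). Ciart, a repressor of the clock, measured 8.77, 8.73, 9.26 and 8.79 in the mutant tamoxifen arrays and 9.60, 9.76 and 9.95 in the control arrays and fell 1.72-fold (log2 difference -0.78, SE 0.13, adjusted p = 0.00209). Nfil3, which opposes Dbp at the same sites, was the member that rose (0.54). Arntl and Clock differed by 0.01 and -0.02 and did not pass. The sources used here do not give the hour at which tissue was taken, and its part was not tested. For clock genes, the counts were 0 higher and 5 lower with the female arrays alone. Hlf did not pass without mutant tamoxifen array 3 (adjusted p = 0.06). Nfil3 did not pass without mutant tamoxifen array 3 or control array 2 (adjusted p = 0.0783 and 0.105).

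The Ciart promoter is shown because it carries 3 copies of the E-box CACGTG, in capitals, at positions -116, -58 and -44 from the start site.
Ciart (chr3:95882179-95882478, minus strand): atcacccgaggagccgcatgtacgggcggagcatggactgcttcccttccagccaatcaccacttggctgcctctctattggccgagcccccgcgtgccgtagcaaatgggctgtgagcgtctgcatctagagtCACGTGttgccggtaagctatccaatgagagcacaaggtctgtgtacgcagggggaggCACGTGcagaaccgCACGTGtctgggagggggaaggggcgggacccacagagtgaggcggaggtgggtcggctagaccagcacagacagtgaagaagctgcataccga
The letters CACGTG, which read the same on both strands, were in 31.6% of 19 windows of 14 clock genes and in 7.15% of all windows. Other elements were searched on both strands. The D-box TTATGTAA was in 1 of 19 clock gene windows (0.938% of all windows), the sterol response element TCACCCCAC in 1 of 19 cholesterol synthesis windows (0.551%), the HNF4 site CAAAGTCCA in 1 of 16 brush border windows (0.475%), and the CArG box in 1 of 10 smooth muscle windows (1.63%).

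Enzymes that build the sugar chains of mucins, listed with some that act on other proteins or on lipids, rose in 13 of 34 cases and fell in 4 (median 0.16). This list is called mucin sugar enzymes or mucin sugar chains below. Mgat4c, which branches N-glycans, measured 10.22, 10.03, 10.37 and 9.83 in the mutant tamoxifen arrays and 7.21, 7.21 and 8.60 in the control arrays and rose 5.53-fold (log2 difference 2.47, SE 0.362, adjusted p = 0.00118). Gcnt4, which branches O-glycans, measured 8.22, 8.19, 8.85 and 9.42 in the mutant tamoxifen arrays and 6.58, 6.65 and 6.54 in the control arrays, with the mutants spread over more than a log2 unit above close controls, and rose 4.42-fold (log2 difference 2.14, SE 0.261, adjusted p = 0.00049). The starters of O-glycans Galnt3, Galnt1 and Galnt12 rose by 1.29, 0.78 and 0.71, and C1galt1, which makes the next core, by 0.46. Fut2, the fucosyltransferase of secreted mucins, measured 12.22, 12.21, 12.66 and 11.89 in the mutant tamoxifen arrays and 11.29, 11.43 and 11.49 in the control arrays and rose 1.88-fold (log2 difference 0.91, SE 0.136, adjusted p = 0.00129). For mucin sugar enzymes, the counts were 8 higher and 2 lower with the female arrays alone, and 13 and 7 after another quantile normalization.

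Transferases that end the chains fell in part. St8sia5, which adds sialic acid to lipids, measured 8.10, 8.69, 7.75 and 6.42 in the mutant tamoxifen arrays and 9.53, 10.69 and 8.73 in the control arrays and fell 5.2-fold (log2 difference -2.38, SE 0.549, adjusted p = 0.0107), with a wide spread in every group. For St8sia5 mutant NaCl minus control was -1.39. Its mutant groups did not differ past the threshold (log2 difference -0.99, adjusted p = 0.172). B4galnt2, which makes the Sda antigen of the colon, fell 2.31-fold. Of 17 goblet cell products 6 rose and 3 fell (52.9% called against 24.6% of all genes, median 0.03). Retnlb, a goblet cell lectin-like peptide made in response to bacteria and worms, measured 11.63, 11.20, 10.25 and 9.89 in the mutant tamoxifen arrays and 5.17, 8.86 and 9.24 in the control arrays. At 5.41, 5.98, 5.24 and 5.30, the mutant NaCl arrays were below every array of both groups but control array 1. It rose 6.24-fold (log2 difference 2.64, SE 0.83, adjusted p = 0.0402), with control array 1 far below the other controls. The mucin Muc2 differed by 0.12 and did not pass, Tff3 fell by 0.60, and Agr2 and Spdef, which fold mucin and direct goblet cell maturation, rose by 0.35 and 0.42. For goblet cell products, the counts were 6 higher and 5 lower with no sex term or with array weights, and 3 and 1 with the female arrays alone or without control array 2. St8sia5 did not pass without control array 2 (adjusted p = 0.0863). Retnlb did not pass without mutant tamoxifen array 1, 2 or 3, control array 2, or mutant NaCl array 1, 2, 3 or 4 (adjusted p 0.0537 to 0.145). Spdef did not pass without mutant tamoxifen array 1 or 3 or control array 1 or 2 (adjusted p 0.0551 to 0.183).

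Acute phase and complement genes rose in 9 of 16 cases and fell in 1 (median 0.72). Saa3, a serum amyloid A, measured 9.99, 9.20, 9.51 and 9.36 in the mutant tamoxifen arrays and 7.23, 7.28 and 7.09 in the control arrays and rose 4.99-fold (log2 difference 2.32, SE 0.165, adjusted p = 2.17e-05). Its relative Saa1 had a difference of -0.90 that did not pass (adjusted p = 0.104), so that the family did not move together, and the copies are alike enough for probes to share signal. Hp, haptoglobin, and Socs3, a brake on cytokine signals, rose by 1.00 and 1.01. The iron binder Lcn2 rose 2.27-fold. The antibody transporter Pigr was the member that fell, by 0.65. Beside these, all 10 neutrophil markers rose (median 0.70), with mean levels of 6.70 to 7.26 in the mutant tamoxifen arrays, 6.12 to 6.25 in the control arrays and 6.04 to 6.14 in the mutant NaCl arrays. Their part in the acute phase values was not tested. The kappa B letters GGNNTTTCC were in 2 of 10 windows of the acute phase genes (5.82% of all windows). For acute phase and complement genes, the counts were 6 higher and 0 lower with the female arrays alone. For neutrophil markers, the counts were 6 higher and 0 lower with only the 7 arrays of the groups compared, 3 and 0 with the female arrays alone, and 5 and 0 of 5 tested without the lowest 25% of genes. None of these was tested without the lowest 50% of genes. Pigr did not pass without control array 2 (adjusted p = 0.103).

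Oxidant and antioxidant genes rose in 10 of 20 cases, and 1, the catalase gene Cat, fell by 0.24 (median 0.28). The epithelium makes hydrogen peroxide at its surface with Duox2 and its maturation factor Duoxa2, and superoxide with Nox1. Duoxa2 measured 10.89, 11.20, 11.42 and 10.73 in the mutant tamoxifen arrays and 8.34, 10.11 and 9.82 in the control arrays and rose 2.94-fold (log2 difference 1.56, SE 0.362, adjusted p = 0.0111). Nox1 rose by 1.01 and Duox2 by 1.03. Nos2, the inducible nitric oxide synthase, measured 9.29, 9.08, 9.06 and 7.70 in the mutant tamoxifen arrays and 6.38, 7.72 and 7.77 in the control arrays, and because mutant array 4 was below control arrays 2 and 3 the groups overlapped, although the gene passed (log2 difference 1.54, SE 0.438, adjusted p = 0.0273). On the protective side Gpx2, Gsr and Txnrd1 rose by 0.65, 0.56 and 0.56. For oxidant genes, the counts were 5 higher and 0 lower with only the 7 arrays of the groups compared or with the female arrays alone, 6 and 0 without mutant tamoxifen array 2 or control array 1, and 4 and 0 without mutant tamoxifen array 3. Duoxa2 and Nox1 did not pass without mutant tamoxifen array 3 (adjusted p = 0.0915 and 0.129). Cat did not pass without mutant tamoxifen array 2, 3 or 4, control array 1 or 2, or mutant NaCl array 1 or 4 (adjusted p 0.0506 to 0.148). Duox2 did not pass without mutant tamoxifen array 1, 2 or 3, control array 1 or 3, or mutant NaCl array 1, 2, 3 or 4 (adjusted p 0.0519 to 0.278). Nos2 did not pass without mutant tamoxifen array 1, 2 or 3 or control array 1 (adjusted p 0.0542 to 0.131).

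Of 29 cytokines 7 rose and 2 fell (31% called against 24.6% of all genes, median 0.00). Il1b measured 9.89, 8.55, 9.57 and 10.01 in the mutant tamoxifen arrays and 6.66, 7.37 and 7.46 in the control arrays and rose 5.01-fold (log2 difference 2.32, SE 0.337, adjusted p = 0.00114). Tnf, Il33 and Il11 rose by 0.59, 0.60 and 0.43. Il15, which sustains lymphocytes within the epithelium, measured 7.98, 7.96, 7.70 and 7.43 in the mutant tamoxifen arrays and 9.61, 9.02 and 9.11 in the control arrays and fell 2.71-fold (log2 difference -1.44, SE 0.163, adjusted p = 0.000337). Ifng, the interferon of T cells, did not pass, at 0.07. Among 21 genes of prostaglandins and leukotrienes 5 rose and 4 fell (42.9% called against 24.6% of all genes, median -0.02). Ptgs2, the inducible cyclooxygenase, measured 10.78, 9.01, 10.50 and 10.15 in the mutant tamoxifen arrays and 8.98, 8.96 and 8.89 in the control arrays, with mutant array 2 next to the controls, and rose 2.41-fold (log2 difference 1.27, SE 0.344, adjusted p = 0.022). Hpgd, which breaks prostaglandins down, fell by 0.50, and Hpgds, the prostaglandin D synthase, 2.36-fold. For cytokines, the counts were 2 higher and 1 lower with the female arrays alone, 4 and 2 without mutant tamoxifen array 3 or control array 1, and 2 and 3 of 9 tested without the lowest 50% of genes. For prostaglandin and leukotriene genes, the counts were 2 higher and 3 lower with only the 7 arrays of the groups compared, 0 and 1 with the female arrays alone, 0 and 2 without mutant tamoxifen array 3, 3 and 3 without control array 1, and 3 and 2 without control array 2. Il11 and Ptgs2 did not pass without mutant tamoxifen array 3 or control array 1, 2 or 3 (adjusted p 0.0506 to 0.124).

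Genes of antigen presentation on MHC class II fell in 3 of 9 cases (33.3% called against 24.6% of all genes, median -0.56). H2-Aa measured 11.90, 11.46, 11.69 and 10.93 in the mutant tamoxifen arrays and 12.10, 12.36 and 12.62 in the control arrays and fell 1.76-fold (log2 difference -0.81, SE 0.219, adjusted p = 0.0213). The mutant NaCl arrays, at 12.65, 12.91, 12.43 and 12.73, were above all mutant tamoxifen arrays and overlapped the controls. The invariant chain Cd74 fell by 0.60. Genes induced by interferon passed in 1 of 21 cases, with Nlrc5 lower by 0.22 (4.76% called against 24.6% of all genes, list median 0.17). Ifit1 had a difference of 1.01 that did not pass (adjusted p = 0.246). The interferon response letters GAAANNGAA were in 44.4% of 18 windows of these genes and in 8.56% of all windows. For MHC class II genes, the counts were 0 higher and 5 lower with no sex term or with array weights or without mutant tamoxifen array 1, 0 and 1 with only the 7 arrays of the groups compared or with the female arrays alone or without mutant tamoxifen array 3 or control array 2 or 3, and 0 and 5 of 7 tested without the lowest 50% of genes. For interferon genes, the counts were 3 higher and 0 lower with only the 7 arrays of the groups compared, 0 and 0 with the female arrays alone or with the mean of all clusters or without mutant tamoxifen array 1, 3 or 4, control array 1 or 2, or mutant NaCl array 2, and 2 and 1 without mutant NaCl array 1. H2-Aa did not pass without mutant tamoxifen array 3 or control array 2 or 3 (adjusted p 0.0552 to 0.125). Cd74 did not pass without mutant tamoxifen array 2 or 3, control array 2 or 3, or mutant NaCl array 1, 2, 3 or 4 (adjusted p 0.0554 to 0.18). Nlrc5 did not pass without mutant tamoxifen array 1, 3 or 4, control array 1 or 2, or mutant NaCl array 2 (adjusted p 0.0521 to 0.153).

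Of 12 T cell genes and 11 B cell genes 0 passed in limma (medians 0.03 and 0.28). Of 9 plasma cell genes 3 rose and 0 fell (33.3% called against 24.6% of all genes, median 0.24). Prdm1, a transcription factor of these cells, Sdc1, their surface proteoglycan, and Fkbp11, a folding enzyme, rose by 0.77, 0.44 and 0.35. The other 6 members, Jchain, Mzb1, Irf4, Tnfrsf17, Derl3 and Xbp1, did not pass. The part of plasma cells in the 3 rises was not tested. With no adjustment, the numbers at a p under 0.05 were 0 T cell and 0 B cell genes. Of 13 macrophage and dendritic cell genes 4 fell (30.8% called against 24.6% of all genes, median -0.25), among them Cd68 by 0.61 and Clec10a by 0.65. Of 11 mast cell genes 3 rose and 1 fell (36.4% called against 24.6% of all genes, median 0.32). Mcpt1 and Mcpt2, proteases of mucosal mast cells, rose 3.34-fold and 4.17-fold. Mcpt2 measured 8.37, 9.16, 9.26 and 7.06 in the mutant tamoxifen arrays and 5.67, 6.39 and 7.39 in the control arrays, so that mutant array 4 was below control array 3 (log2 difference 2.06, SE 0.635, adjusted p = 0.0373). Ms4a2, a chain of the IgE receptor of mast cells, differed by 0.03 and did not pass. For T cell genes, the counts were 1 higher and 0 lower without mutant tamoxifen array 4, and 0 and 1 without control array 2. For B cell genes, the counts were 1 higher and 0 lower with only the 7 arrays of the groups compared. For plasma cell genes, the counts were 5 higher and 0 lower with only the 7 arrays of the groups compared or without mutant NaCl array 4. For macrophage and dendritic cell genes, the counts were 0 higher and 2 lower with only the 7 arrays of the groups compared or without control array 3, 0 and 0 with the female arrays alone or without mutant tamoxifen array 3, and 0 and 1 without control array 1. For mast cell genes, the counts were 1 higher and 0 lower with the female arrays alone or without mutant tamoxifen array 2 or 3, control array 1, or mutant NaCl array 2, 1 and 1 with robust eBayes or without mutant tamoxifen array 1 or control array 2, and 0 and 1 of 2 tested without the lowest 50% of genes. Cd68 did not pass without mutant tamoxifen array 3 or control array 1 (adjusted p = 0.0815 and 0.0517). Clec10a did not pass without mutant tamoxifen array 3 or control array 1 or 3 (adjusted p 0.0561 to 0.124). Mcpt1 did not pass without mutant tamoxifen array 1, 2 or 3, control array 1 or 2, or mutant NaCl array 2 or 3 (adjusted p 0.0506 to 0.198). Mcpt2 did not pass without mutant tamoxifen array 1, 2 or 3, control array 1 or 2, or mutant NaCl array 2 (adjusted p 0.0547 to 0.211).

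Laminins and hemidesmosome genes rose in 8 of 17 cases and fell in 2 (58.8% called against 24.6% of all genes, median 0.13). Itgb4, the partner chain of integrin α6, measured 11.60, 11.59, 11.73 and 11.83 in the mutant tamoxifen arrays and 11.18, 11.26 and 11.15 in the control arrays and rose 1.43-fold (log2 difference 0.51, SE 0.0717, adjusted p = 0.000965). Chains of the main laminin ligand rose, Lama3 by 0.64 and Lamb3 by 0.57. Plec, plectin, which ties the junction to keratin, rose by 0.51, while Dst, another linker, fell by 0.28. For hemidesmosome and laminin genes, the counts were 1 higher and 0 lower with the female arrays alone. Dst did not pass without mutant tamoxifen array 1, 2 or 3, control array 1, or mutant NaCl array 2, 3 or 4 (adjusted p 0.0519 to 0.212).

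Of 17 other integrin chains 4 rose and 4 fell (47.1% called against 24.6% of all genes, median 0.02). Itga2, the α chain of a collagen receptor of epithelia, measured 10.59, 10.59, 10.58 and 10.83 in the mutant tamoxifen arrays and 9.27, 9.35 and 9.33 in the control arrays and rose 2.48-fold (log2 difference 1.31, SE 0.0823, adjusted p = 1.21e-05). Itgb6, the β chain of an epithelial integrin that activates TGF-β, measured 9.94, 9.92, 10.15 and 9.96 in the mutant tamoxifen arrays and 9.12, 9.26 and 9.26 in the control arrays and rose 1.76-fold (log2 difference 0.82, SE 0.0891, adjusted p = 0.000272), and its partner chain Itgav rose by 0.47. Itga8 and Itga7, chains found mainly on muscle and mesenchymal cells, fell by 1.06 and 0.64, beside the fall of all 13 smooth muscle genes. Itga3, the α chain of another laminin receptor of epithelia, rose by 0.43. For other integrin chains, the counts were 2 higher and 1 lower with the female arrays alone, and 3 and 2 without mutant tamoxifen array 3.

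**Figure D5:**
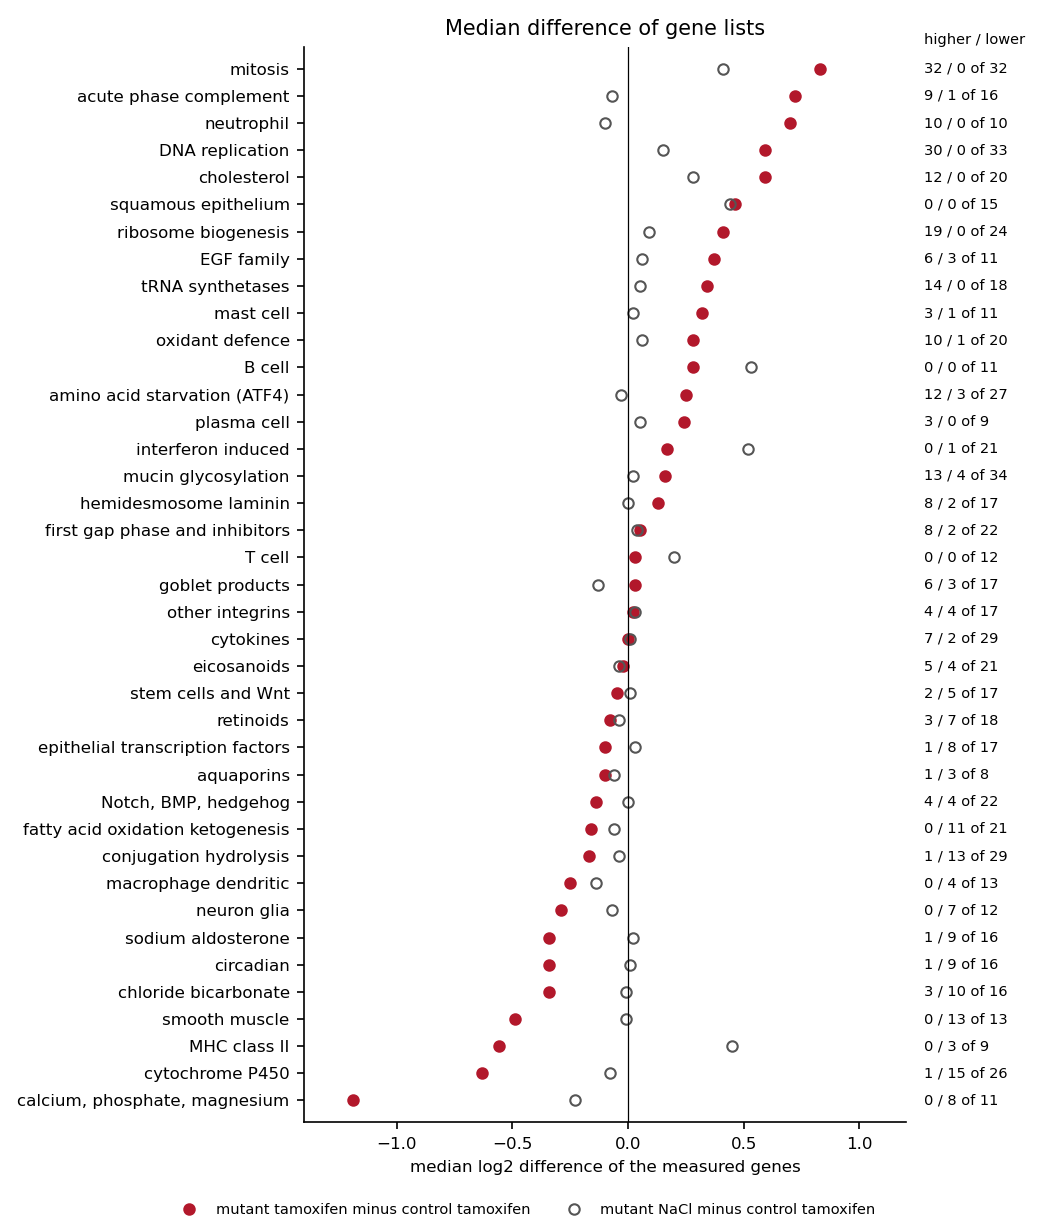
Median log2 difference of the measured genes of each list: filled points are mutant tamoxifen minus control tamoxifen and open points are mutant NaCl minus control tamoxifen, which share the control arrays. Numbers at the right give genes higher and lower of those measured; calcium, phosphate and magnesium handling lies lowest at -1.19 and mitosis highest at 0.83.

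Several large differences lay outside these groups. Mfsd2a, a carrier of lysolipids with omega-3 fatty acids, measured 10.26, 10.16, 10.59 and 9.78 in the mutant tamoxifen arrays and 6.68, 8.07 and 7.21 in the control arrays and rose 7.2-fold (log2 difference 2.85, SE 0.299, adjusted p = 0.000227). Tgm3, a protein cross-linking transglutaminase, measured 9.96, 9.87, 10.41 and 9.80 in the mutant tamoxifen arrays and 12.64, 13.05 and 13.09 in the control arrays and fell 7.42-fold (log2 difference -2.89, SE 0.189, adjusted p = 1.73e-05). Naaladl1, a peptidase of the gut surface, measured 6.44, 6.77, 6.59 and 6.45 in the mutant tamoxifen arrays and 9.09, 9.17 and 9.09 in the control arrays and fell 5.59-fold (log2 difference -2.48, SE 0.131, adjusted p = 3.89e-06).

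Edn1, the precursor of the vessel-constricting peptide endothelin, measured 7.98, 8.25, 7.82 and 7.65 in the mutant tamoxifen arrays and 10.01, 9.46 and 9.64 in the control arrays and fell 3.22-fold (log2 difference -1.69, SE 0.171, adjusted p = 0.000194). Cldn4, a tight junction protein, measured 11.70, 11.49, 11.66 and 12.30 in the mutant tamoxifen arrays and 10.23, 10.54 and 10.38 in the control arrays and rose 2.67-fold (log2 difference 1.42, SE 0.22, adjusted p = 0.00153). Slc15a1, the peptide carrier, fell 2.95-fold and Pck1, the first enzyme of glucose making, 3.79-fold. Trim15 and Ddah1, which clears an inhibitor of nitric oxide synthesis, rose 5.39-fold and 5.11-fold.

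Other genes among the 40 ranked for the largest rise are given by role. Mmp7, the matrix protease that activates gut defensins, measured 8.84, 8.69, 7.94 and 9.18 in the mutant tamoxifen arrays and 6.16, 6.24 and 6.24 in the control arrays and rose 5.01-fold (log2 difference 2.32, SE 0.208, adjusted p = 9.82e-05). The bactericidal phospholipase Pla2g2a rose 7.17-fold, and Reg3g, a lectin that binds Gram-positive bacteria, 3.22-fold. The iron binder Ltf, lactoferrin, rose 4.94-fold and the protease inhibitor Slpi 3.13-fold. Cxcl5 and Cxcl2, chemokines that draw neutrophils, rose 4.23-fold and 3.11-fold. Their receptor Cxcr2, which is itself among the 10 neutrophil markers (median 0.70), rose 3.26-fold. The part of neutrophils in these values was not tested. Lrg1, a secreted glycoprotein of inflamed tissue, rose 6.34-fold. Stc1, the hormone stanniocalcin, rose 3.18-fold, and Akr1c18, a dehydrogenase that inactivates progesterone, 2.97-fold. The transporter Slc4a11 rose 4.58-fold, the nucleotidase Nt5c1a 3.99-fold and Ccn3, a matrix-associated protein, 3.08-fold. Clca4b and Clca3a2, of a family that regulates chloride channels, rose 4.56-fold and 3.13-fold. Reg3g did not pass without mutant tamoxifen array 3 or control array 2 (adjusted p = 0.0652 and 0.051). Cxcl2 did not pass without control array 2 (adjusted p = 0.0846).

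Others among the 40 ranked for the largest fall include transporters and enzymes. Slc26a3, the exchanger that takes up chloride for bicarbonate, measured 11.53, 11.26, 11.40 and 11.33 in the mutant tamoxifen arrays and 12.96, 13.13 and 13.07 in the control arrays and fell 3.18-fold (log2 difference -1.67, SE 0.0781, adjusted p = 2.65e-06). Mep1a, a subunit of the surface protease meprin, fell 3.49-fold, and P2ry4, a receptor for UTP, 2.84-fold. Abcg5, a subunit of the sterol exporter, fell 3.01-fold and Slc37a2, a sugar phosphate exchanger, 4.07-fold. Hsd3b3, a steroid dehydrogenase, fell 4.79-fold, Hao2, a hydroxyacid oxidase of peroxisomes, 3.1-fold, and Klb, the coreceptor of endocrine fibroblast growth factors, 2.68-fold. For Hsd3b3 mutant NaCl minus control was -1.84. Its mutant groups did not differ past the threshold (log2 difference -0.42, adjusted p = 0.445). Of the 80 ranked genes in both directions, 18 are not named here.

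Some large rises were in genes for which the controls were far apart. Sprr1a, a cornified envelope protein, measured 12.33, 12.07, 11.96 and 12.78 in the mutant tamoxifen arrays and 7.97, 11.74 and 9.16 in the control arrays, and Psca, a surface protein of stratified epithelia, measured 10.25, 9.59, 9.87 and 10.65 in the mutant tamoxifen arrays and 6.53, 9.06 and 7.50 in the control arrays. Ppbp, a platelet and myeloid chemokine, measured 10.87, 11.23, 10.51 and 11.53 in the mutant tamoxifen arrays and 6.38, 10.37 and 7.54 in the control arrays. In all 3 genes control array 2, where squamous markers averaged 10.10, was the highest control, and the mutant NaCl arrays did not differ from the mutant tamoxifen arrays past the threshold (adjusted p = 0.45 for Sprr1a, 0.231 for Psca and 0.349 for Ppbp). They rose 4.61-fold, 4.62-fold and 6.02-fold. Mutant tamoxifen array 3, where squamous markers averaged 8.26, was above all controls in each of them. It was close to control array 2 for Sprr1a (11.96 against 11.74) and Ppbp (10.51 against 10.37). The part of squamous tissue in the values of these 3 genes was not tested. Sprr1a did not pass without mutant tamoxifen array 3 or 4 or control array 1 or 3 (adjusted p 0.0512 to 0.161). Psca did not pass without mutant tamoxifen array 3 (adjusted p = 0.0738). Ppbp did not pass without mutant tamoxifen array 1, 2, 3 or 4, control array 1 or 3, or mutant NaCl array 2 (adjusted p 0.0512 to 0.134).

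Small changes were also measured precisely. Aldh2, the acetaldehyde dehydrogenase, measured 11.94, 11.98, 12.07 and 11.96 in the mutant tamoxifen arrays and 12.59, 12.58 and 12.51 in the control arrays and fell 1.48-fold (log2 difference -0.57, SE 0.0462, adjusted p = 5.93e-05). Cdhr5, a cadherin that spaces the microvilli, measured 11.95, 12.02, 12 and 12.03 in the mutant tamoxifen arrays and 12.45, 12.47 and 12.42 in the control arrays and fell 1.36-fold (log2 difference -0.45, SE 0.0381, adjusted p = 7.44e-05). Cx3cl1, a membrane-bound chemokine, and Entpd5, a nucleotide hydrolase of the secretory route, fell 1.48-fold and 1.5-fold, and the small GTPase Rala rose 1.34-fold. The pseudogene Olfr1372-ps1 fell 1.48-fold.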

How the data were processed

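RNA of rectal mucosa from 11 mice was measured with 1 Affymetrix Mouse Gene 1.0 ST array for each mouse. The authors deposited log2 values made by RMA (background correction, quantile normalization and a summary over probes) in Expression Console 1.1 from images read with Command Console 2.0, per the labels and the series' design text. Partek is named in the submitters' processing notes without a role, and the genome build is not given in the sources used here. Quantile normalization gives all arrays 1 distribution, so a shift of most genes would not be seen.

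Of 35556 transcript clusters, 21797 carry a single symbol in the platform annotation, 1613 carry several and 12146 are not listed. The cluster with the highest mean was kept for each of 19944 genes. Differences come from limma 3.58.1 (R 4.3.3): all 11 arrays, a mean per group, a sex term, empirical Bayes with a trend, two-sided tests, and Benjamini-Hochberg adjustment over all genes. The script was tested on simulated data. Gene lists, which have no test, are described by counts and medians beside those of all genes. The comparison, its lists and its named genes were chosen with earlier results of these data known. Named genes are Itga6, the 40 genes of the largest difference in each direction that passed with groups apart, for those whose role is known, the members of each list with the smallest p, the highest level or a place in the pathway, and the 6 genes of the smallest p at no more than a 1.5-fold difference. Further list members were chosen after their values were seen. Promoter windows are RefSeq sequences of GRCm38.p6, matched by symbol. Alternatives changed the sex term, the arrays fitted, the low genes kept, the normalization, the variance model, the clusters and the array weights, and left out each array.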

Additional observations from a re-analysis of the deposited data

Results flagged for a closer look

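In 18 of 286 named genes and list means, 1 mutant tamoxifen array lay apart from the other 3, by Dixon's criterion for 4 samples. Chance flags about 1 in 20, which would be 14. Array 1 was low for Atp2b1 at 11.66 (others 11.95 to 12). Array 1 was high for Cyp2d26 at 8.28 (others 7.88 to 7.95). Array 2 was low for Gpx2 at 12.72 (others 12.79 to 12.80) and the mean level of the EGF family genes at 9.10 (others 9.48 to 9.52). Array 3 was low for Kif4 at 8.41 (others 8.59 to 8.61) and Plk1 at 10.46 (others 10.69 to 10.73). Array 3 was high for Ciart at 9.26 (others 8.73 to 8.79) and Itgb6 at 10.15 (others 9.92 to 9.96). Array 4 was low for Bmp2 at 9.71 (others 9.87 to 9.88), Ccnd1 at 10.82 (others 11.05 to 11.06), Ces2e at 8.41 (others 8.90 to 8.98), Hnf4g at 8.83 (others 9.13 to 9.17), Lss at 10.35 (others 10.62 to 10.64), Nos2 at 7.70 (others 9.06 to 9.29) and Pigr at 11.93 (others 12.63 to 12.72). Array 4 was high for Itga2 at 10.83 (others 10.58 to 10.59), Psat1 at 9.25 (others 8.93 to 8.96) and Rbp2 at 10.37 (others 9.80 to 9.87). Transcript clusters outside the gene table also differed between mutant and control mice given tamoxifen: 172 of 1613 with several gene symbols (10.7%; 118 higher, 54 lower) and 500 of 12146 that the annotation does not list (4.12%; 288 higher, 212 lower) passed in limma. They are unnamed here.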

How the results depend on the processing

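Of 222 named genes that passed, all kept their direction under the 22 alternatives, and 130 also stayed past the threshold under every one in which they were tested. The number of called genes ran from 4546 to 5657 under alternatives that kept all 11 arrays and all genes. It was 5005 without the lowest 25% of genes and 4031 without the lowest 50% of genes. Those filtered fits tested fewer genes, so their counts cannot be set beside the others. The number of called genes was 3707 with only the 7 arrays of the groups compared. It fell to 1385 with the female arrays alone (785 higher and 600 lower), with fewer arrays in the fit. It ran from 2517 to 4685 with each array left out in turn (1349 to 2530 higher, 1168 to 2198 lower). With the female arrays alone, the median difference was 0.11 for other integrins, -0.41 for chloride and bicarbonate transport, -0.28 for water channels, -0.40 for cytochromes P450, -0.25 for conjugation and hydrolysis, 0.18 for cholesterol synthesis, 0.31 for ATF4 targets, 0.29 for tRNA synthetases, 0.51 for acute phase and complement, 0.04 for prostaglandins and leukotrienes, -0.10 for macrophages and dendritic cells, 0.74 for B cells and 0.48 for plasma cells. Without the lowest 50% of genes, the median difference was -0.07 for other integrins, -0.68 for water channels, -0.94 for cytochromes P450, -0.27 for conjugation and hydrolysis, -0.28 for vitamin A metabolism, 0.36 for ATF4 targets, 0.11 for first gap phase regulators, 0.89 for acute phase and complement, -0.24 for cytokines, -0.05 for mast cells, -0.39 for neurons and glia and -0.19 for T cells. Without the lowest 25% of genes, the median difference was -0.81 for cytochromes P450, -0.27 for conjugation and hydrolysis, 1.00 for acute phase and complement and -0.06 for cytokines. With no sex term, the median difference was 0.22 for hemidesmosome and laminin genes, -0.02 for water channels and -0.56 for cytochromes P450. With array weights, the median difference was -0.20 for conjugation and hydrolysis. With only the 7 arrays of the groups compared, the median difference was -0.18 for water channels. After another quantile normalization, the median difference was 0.05 for cytokines. With each array left out in turn, it ran from 0.09 to 0.29 for hemidesmosome and laminin genes, -0.19 to 0.07 for other integrins, -0.18 to -0.02 for water channels, -0.67 to -0.41 for cytochromes P450, -0.21 to -0.15 for conjugation and hydrolysis, -0.17 to -0.08 for vitamin A metabolism, 0.37 to 0.94 for cholesterol synthesis, -0.21 to -0.16 for fatty acid use, 0.28 to 0.36 for tRNA synthetases, -0.46 to -0.30 for clock genes, 0.05 to 0.19 for mucin sugar chains, 0.54 to 0.83 for acute phase and complement, 0.06 to 0.41 for mast cells, -0.41 to -0.14 for macrophages and dendritic cells, -0.33 to -0.23 for neurons and glia, -0.24 to 0.15 for T cells, -0.19 to 0.58 for B cells and -0.04 to 0.37 for plasma cells. Arntl, which did not pass, turned to -0.05 with only the 7 arrays of the groups compared, -0.11 with female arrays alone, 0.00 after another quantile normalization and -0.10 with array weights. Among genes that did not pass, Arntl ran from -0.12 to 0.14, Axin2 ran from -0.02 to 0.15, Clock ran from -0.04 to 0.03 and Trib3 ran from -0.03 to 0.12 with 1 array left out. On the given strand alone, the share of the list's windows was 0% for the E2F site (0.511% of all windows), 9.09% for the E2F site, second form (0.271% of all windows), 7.69% for the ATF4 response element (2.12% of all windows), 16.7% for the ISRE (4.48% of all windows) and 0% for the kappa B site (2.93% of all windows). In each case the cause of a shift was not tested unless it is named. No paired analysis was possible because the labels carry no replicate numbers that tie mice together. The 4 and 3 mice limit all values, and no detection call was used, so that a low signal cannot be told from the background of the array.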
